A study of Mus musculus with 12 samples.

Results

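The genes described here are the 8 members of the phosphagen system that the heart tables were searched for by name: the creatine kinases Ckm, Ckmt2 and Ckb, the creatine transporter Slc6a8, the creatine-synthesis enzyme Gatm, the adenylate kinase Ak1 and the ADP/ATP translocases Slc25a4 and Slc25a5. All 8 were found, of 16514 genes listed in any table, and all 8 passed the filter on low values in every comparison. Hearts came from male C57Bl/6J mice aged 12 weeks, in 4 groups of 3 libraries. Control sham and control TAC hearts came from mice on the BCAA-control diet, which contains the branched-chain amino acids leucine, isoleucine and valine, and BCAA-free sham and BCAA-free TAC hearts from mice on a diet lacking them. Both diets carried 1% propionate, so no group lacked that supplement. Feeding started 4 days ahead of surgery, either sham or transverse aortic constriction (TAC), in which the aortic arch is banded so that the left ventricle pumps against raised pressure. Tissue was collected 1 week after the operation. The comparisons ask how pressure load and dietary BCAA relate to the expression of these genes, and whether the TAC response differs between diets.

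The heart uses ATP faster than it can be carried by diffusion of adenine nucleotides alone. Mitochondrial creatine kinase transfers phosphate from new ATP to creatine, phosphocreatine diffuses to the myofibrils, and cytosolic creatine kinase there returns the phosphate to ADP. Adenine nucleotide translocases exchange ADP and ATP across the inner mitochondrial membrane, adenylate kinase interconverts ATP, ADP and AMP, and cardiomyocytes take up creatine that is made mainly in kidney and liver.

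Of the 8 genes, Ckb and Gatm were the ones past the threshold in a comparison of 2 groups, so the bases before their start sites are shown. The sequences are from RefSeq on GRCm38.p6, where 7 of the 8 genes had an entry and Slc6a8 had none. Both genes lie on the minus strand, the sequences read 5′ to 3′, and capitals mark a matched motif. The Ckb stretch ends at the base before the RefSeq start site. The Gatm stretch ends where the GENCODE gene begins, 26 bases before the RefSeq start site. For Ckb (chr12:111672339-111672588) the capitals are a TATA box, and for Gatm (chr2:122611304-122611527) an E-box, the CANNTG element bound by basic helix-loop-helix factors.
Ckb: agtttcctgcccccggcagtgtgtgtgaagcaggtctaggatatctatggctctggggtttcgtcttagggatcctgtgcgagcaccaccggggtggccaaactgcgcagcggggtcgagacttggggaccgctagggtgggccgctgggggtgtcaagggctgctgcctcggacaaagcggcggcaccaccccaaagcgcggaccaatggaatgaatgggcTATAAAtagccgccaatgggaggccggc
Gatm: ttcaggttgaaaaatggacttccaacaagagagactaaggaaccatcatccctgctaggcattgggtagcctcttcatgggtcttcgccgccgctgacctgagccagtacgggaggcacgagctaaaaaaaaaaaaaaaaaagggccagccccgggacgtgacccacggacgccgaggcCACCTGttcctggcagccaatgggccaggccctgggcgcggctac

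The Ckb TATA box starts 28 bases before the RefSeq start site. The Gatm E-box starts 71 bases before the RefSeq start site, which is 45 bases before the end of the printed stretch. Over both strands of the 250 bases before each start site, TATAAA was found in 12.4% of 32851 RefSeq windows and CANNTG in 66.2%. Among the 7 genes with an entry, 1 had TATAAA and 6 had CANNTG in at least 1 of their windows. GGGCGG was found in 2 of these genes and in 32.7% of all windows, and AAGGTCA in 1 gene and in 4.08% of all windows. These matches describe letters in a window and were not tested for binding.

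The libraries held 29929161 to 46101244 reads assigned to genes, and the 8 genes together took 0.974% to 1.18% of them. Levels are given as CPM, the reads of a gene scaled to a common library size, with TMM scaling between libraries. The 8 cardiomyocyte markers on a fixed list were detected in every library and summed to 74057 to 96586 CPM, and none of the 5 kidney and pancreas markers was listed in all tables. Of 6 liver markers, Apoa2 and Ttr were in all tables. Their sum was 30.4 CPM in control TAC replicate 3 and 0.627 to 1.79 CPM in the other libraries. The 5 cardiac stress genes on a list (Nppa, Nppb, Acta1, Myh7 and Ankrd1) summed to 2179 to 2994 CPM in sham hearts of both diets and to 5600 to 10629 CPM in TAC hearts. No label ties each library to its own mouse, and the p-values therefore reflect library-to-library spread that could be technical. In whole-heart RNA, fewer cells of a type and less RNA per cell cannot be told apart.

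Per kilobase of transcript, Slc25a4 was the most abundant member in control sham hearts, at 3833 ± 301 CPM per kilobase (SD, n = 3). Ckm followed at 1777 ± 94.7 and Ckmt2 at 1372 ± 139 CPM per kilobase. Ak1 reached 258 ± 15.3, Slc25a5 208 ± 9.89, Slc6a8 54.7 ± 2.0 and Ckb 36.2 ± 1.79 CPM per kilobase. Gatm, at 1.37 ± 0.204 CPM per kilobase, was covered by 36 to 174 reads per library. These levels depend on the length used, and 3 lengths were tried. The one used here, the part of the principal transcript within the RefSeq gene, was chosen after the levels under the others had been seen, because the annotated Ckm and Slc25a4 transcripts extend past the RefSeq genes. With the whole principal transcript Ckm stood at 917 and with merged exons at 863 CPM per kilobase, both below Ckmt2, so no order is given for Ckm and Ckmt2. The order of the other genes was the same under all 3 lengths.

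**Figure D1:**
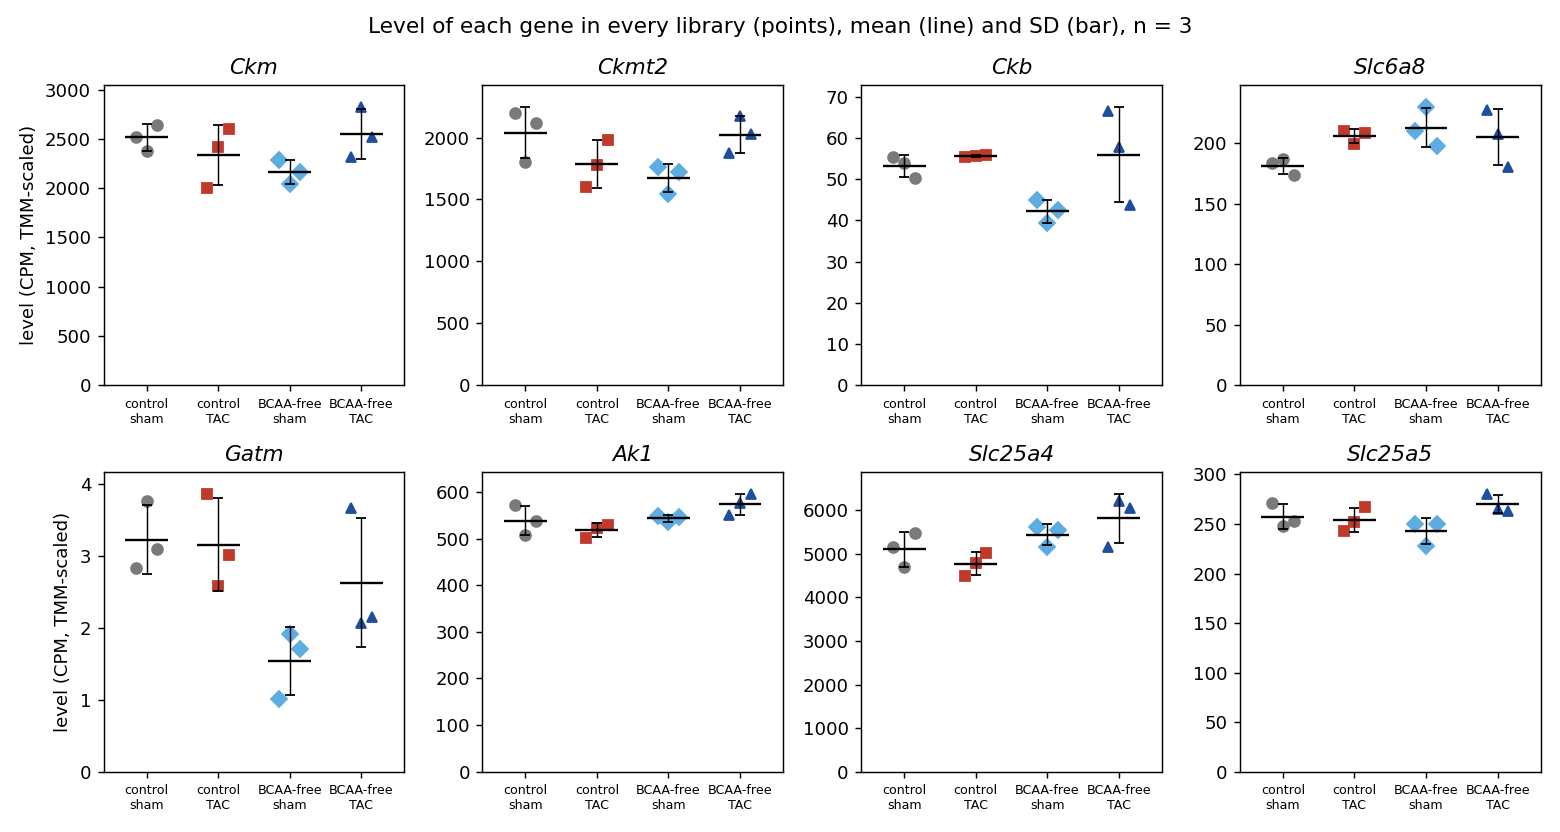
Level of each of the 8 genes in CPM with TMM scaling (vertical axes, from 0) in the 4 groups (horizontal axes). Points are libraries, lines are means and bars are SD (n = 3). In the Ckb and Gatm panels the 3 BCAA-free sham libraries lie below the 3 control sham libraries, and BCAA-free TAC libraries of Ckb spread from 43.7 to 66.5 CPM.

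Without dietary BCAA, sham-operated hearts had less Ckb and less Gatm. Ckb, the brain-type cytosolic creatine kinase (chr12:111669361-111672338), stood at 55.5, 54.0 and 50.3 CPM in control sham libraries and at 44.9, 39.4 and 42.4 CPM in BCAA-free sham libraries. All 3 BCAA-free values were below all 3 control values. The log2 difference was -0.33 ± 0.07 (SE): Ckb fell by 20.3%, with an adjusted p of 0.0347 by limma. Gatm encodes arginine:glycine amidinotransferase, the first enzyme of creatine synthesis (chr2:122594467-122611303). Its levels were 2.83, 3.76 and 3.09 CPM in control sham and 1.01, 1.91 and 1.71 CPM in BCAA-free sham hearts, again without overlap. The log2 difference was -1.04 ± 0.24 (SE): Gatm fell by 51.3%, with an adjusted p of 0.0433 by limma.

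These 2 of 8 genes were past the threshold in the lower direction, against 1.76% of the 15596 genes tested and 2.81% in either direction. Both calls are close to the threshold. Leaving out any 1 of 5 of the 6 libraries ended each call (all but control sham replicate 3), with adjusted p of 0.0136 to 0.14 for Ckb and 0.0361 to 0.14 for Gatm over the 6 omissions. Fitting without the intensity trend also ended them (0.176 and 0.161), as did edgeR over all 12 libraries (0.166 and 0.0835), while the direction held in all 17 settings.

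Ckm, Ckmt2 and Slc6a8 had sham groups that did not overlap but did not pass the threshold. Ckm, the muscle-type cytosolic isoform (chr7:19404776-19422841), measured 2522, 2377 and 2645 CPM in control sham and 2280, 2039 and 2163 CPM in BCAA-free sham hearts, a log2 difference of -0.21 ± 0.07 (SE; adjusted p = 0.16 by limma). Ckmt2, the sarcomeric mitochondrial isoform (chr13:91853387-91876885), measured 2196, 1804 and 2116 against 1759, 1545 and 1719 CPM, a log2 difference of -0.27 ± 0.09 (adjusted p = 0.119 by limma). Slc6a8, the creatine transporter (chrX:73673150-73682502), differed the other way, with 183, 187 and 174 CPM in control sham and 210, 230 and 198 CPM in BCAA-free sham hearts. Its log2 difference was 0.24 ± 0.06 (SE), with an adjusted p of 0.0762 by limma. With quantile normalization Ckmt2 passed (adjusted p = 0.0384). Sham groups did not overlap for 5 of the 8 genes, against 23.2% of all genes tested. Exons of Ckm and Ckmt2 overlap annotated genes on the opposite strand (A930016O22Rik and 1700119I11Rik), and whether reads were counted by strand is not stated in the labels or processing notes. The annotation also names 2 pseudogenes of Ckb and 1 of Slc25a5, which could share reads with them. In the authors' deposited table for this comparison, the adjusted p was 0.00599 for Ckb, 0.00471 for Gatm, 0.0235 for Ckmt2, 0.0332 for Slc6a8 and 0.0503 for Ckm. There, 5.21% of all genes had an adjusted p under 0.05.

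Cell type markers also differed between the sham groups. The 6 fibroblast markers, all detected, summed to 679 to 745 CPM in control sham and 568 to 628 CPM in BCAA-free sham hearts. The 6 macrophage markers, all detected, summed to 220 to 228 and 161 to 179 CPM, while the 8 cardiomyocyte markers overlapped (79293 to 84816 against 82097 to 87441 CPM). The 5 adipocyte markers, of which 1 was at 0 in a library, summed to 552 to 560 and 446 to 529 CPM. The 5 markers of dividing cells, all detected, summed to 4.71 to 14.96 and 2.27 to 3.24 CPM. Their part in the Ckb and Gatm differences was not tested.

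**Figure D2:**
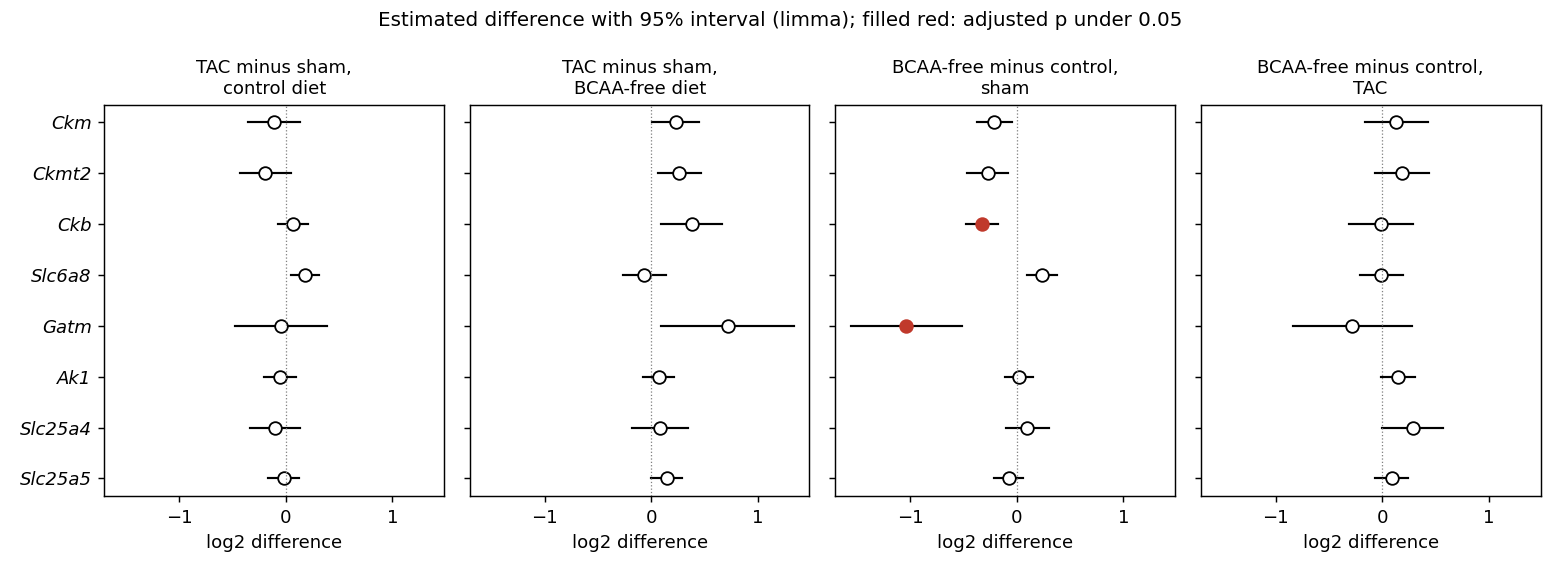
Log2 difference (horizontal axes) of each gene in the 4 comparisons of 2 groups, with its 95% interval from limma. Filled red points have an adjusted p under 0.05, which are Ckb and Gatm for diet in sham hearts, and all other intervals belong to genes that did not pass.

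Ak1 and both translocases did not pass the threshold for diet in sham hearts. Ak1, the cytosolic adenylate kinase (chr2:32621758-32635058), had a log2 difference of 0.02 ± 0.06 (SE), with a 95% interval from -0.11 to 0.15. Slc25a4, translocase 1 of heart and muscle (chr8:46206797-46211284), had 0.10 ± 0.09 and an interval from -0.10 to 0.30. Slc25a5, the more widely expressed translocase 2 (chrX:36795651-36798807), had -0.08 ± 0.06 and an interval from -0.21 to 0.06. The interval of each includes 0.

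In TAC hearts, 0 of the 8 genes passed the threshold for diet, and 0 had an unadjusted p under 0.05 by limma, against 19.9% of all genes. By edgeR 0 passed and 1 had an unadjusted p under 0.05, against 3292 of all 16222 genes. DESeq2 called 1, Slc25a4 (adjusted p = 0.0425). In this comparison 3.38% of 16222 genes passed by limma and 7.28% by DESeq2. Slc25a4 stood at 4494, 4790 and 5023 CPM in control TAC and at 5165, 6207 and 6052 CPM in BCAA-free TAC hearts. The groups did not overlap, and the log2 difference was 0.28 ± 0.13 (SE; adjusted p = 0.259 by limma). Ak1 also did not overlap, with 501, 524 and 530 CPM in control TAC and 550, 576 and 595 CPM in BCAA-free TAC hearts (log2 difference 0.15 ± 0.07). Non-overlap occurred in 25.6% of all genes tested. With quantile normalization the differences were 0.08 for Slc25a4 (adjusted p = 0.718) and 0.00 for Ak1 (adjusted p = 0.994). The cardiomyocyte markers summed to 74057 to 82277 CPM in control TAC and 84299 to 96586 CPM in BCAA-free TAC hearts. The 3 atrial cardiomyocyte markers summed to 202 to 283 CPM in control TAC and 321 to 648 CPM in BCAA-free TAC hearts. The 5 endothelial markers summed to 664 to 780 and 595 to 614 CPM, and the 5 markers of dividing cells to 53.4 to 59.9 and 3.89 to 10.9 CPM. The part of these lists in the 2 differences was not tested. The authors' deposited table gave an adjusted p of 0.0404 for Slc25a4, with 7.8% of genes under 0.05.

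Gatm had 3.86, 2.59 and 3.02 CPM in control TAC and 3.66, 2.07 and 2.15 CPM in BCAA-free TAC hearts, and the groups overlapped. Its diet difference in TAC hearts was -0.28 ± 0.25 (SE, log2). Averaged over both surgeries, Gatm fell by 0.66 ± 0.18 on the log2 scale on the BCAA-free diet (adjusted p = 0.0318 by limma). It was the 1 gene of 8 past the threshold, where 11.8% of 15458 genes passed and 6.57% did so in the lower direction. That call held in 14 of 23 settings, with adjusted p of 0.0074 to 0.0833, and was lost in 7 of 12 single-library omissions. Without control TAC replicate 3, the library with the high liver sum, the difference was -0.67 (adjusted p = 0.0535). For Ckb the diet difference in TAC hearts was -0.01 ± 0.13, and its average over surgeries was -0.17 ± 0.08 (adjusted p = 0.186 by limma).

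TAC called 0 of the 8 genes on the control diet by limma, edgeR and DESeq2, where 5.34% of 15873 genes passed in the limma fit. Slc6a8 was the 1 gene with an unadjusted p under 0.05, against 22.7% of all genes. It stood at 210, 199 and 209 CPM in control TAC hearts, all above the control sham values given before. The log2 difference was 0.18 ± 0.06 (SE; adjusted p = 0.103 by limma), and 14.5% of all genes likewise had every TAC value above every sham value. Ckm, at 2002, 2415 and 2599 CPM in control TAC hearts, and Ckmt2, at 1600, 1779 and 1984 CPM, overlapped with sham. Their log2 differences were -0.11 ± 0.11 and -0.19 ± 0.11. Ckb was at 55.4, 55.8 and 55.9 CPM in control TAC hearts, with a log2 difference of 0.07 ± 0.06. The 95% intervals of these 3 include 0.

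On the BCAA-free diet, TAC also called 0 of the 8 genes by limma and by edgeR, with 4 at an unadjusted p under 0.05 in each. In the limma fit 4.32% of 15936 genes passed and 21.4% had an unadjusted p under 0.05. In the edgeR fit 3345 of the 15936 genes had an unadjusted p under 0.05. DESeq2 called 2, Ckmt2 (adjusted p = 0.0288) and Ckb (adjusted p = 0.034), and 7.27% of all genes. Ckmt2 stood at 1874, 2174 and 2027 CPM in BCAA-free TAC hearts, all above its BCAA-free sham values, with a log2 difference of 0.26 ± 0.09 (SE; adjusted p = 0.131 by limma). Ckm, at 2318, 2822 and 2517 CPM, was likewise above sham in every library, with 0.23 ± 0.10 (adjusted p = 0.216 by limma). With quantile normalization these differences were 0.17 for Ckmt2 and 0.05 for Ckm (adjusted p = 0.183 and 0.764). Of 8 skeletal muscle markers, 4 were in all tables (Mybpc2, Tnnt3, Tnni2 and Pvalb), and Actn3, Myh1, Myh2 and Myh4 were not. The 4 in all tables summed to 25.3 to 30.4 CPM in BCAA-free sham and 54.2 to 94.1 CPM in BCAA-free TAC hearts. On the control diet these 4 summed to 27.4 to 28.5 CPM in sham and 75.9 to 88.7 CPM in TAC hearts. Macrophage markers summed to 161 to 179 and 294 to 375 CPM in BCAA-free sham and TAC hearts. In the same 2 groups fibroblast markers summed to 568 to 628 and 865 to 1604 CPM. Markers of dividing cells summed to 2.27 to 3.24 and 3.89 to 10.9 CPM, and those of neuron and glia to 7.63 to 8.68 and 8.83 to 11.6 CPM. Endothelial markers were lower after TAC, at 668 to 749 and 595 to 614 CPM, and cardiomyocyte markers overlapped. The part of these lists in the kinase differences was not tested. Ckm, Ckmt2, Gatm, Ak1 and Slc25a5 were the 5 genes whose TAC values all lay above the sham values, against 14% of all genes tested. The same BCAA-free sham libraries enter the diet comparison in sham hearts, where Ckm, Ckmt2 and Gatm also did not overlap. The non-overlap counts of these comparisons are therefore not independent. The authors' deposited table gave adjusted p of 0.0304 for Ckmt2 and 0.0359 for Ckb, with 7.18% of genes under 0.05.

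Ckb spread widely in BCAA-free TAC hearts, with 66.5, 57.8 and 43.7 CPM in replicates 1, 2 and 3. Replicate 3 lay within the range of BCAA-free sham hearts and replicate 1 was the highest of all 12 libraries. The log2 difference was 0.38 ± 0.13 (SE; adjusted p = 0.127 by limma), and without replicate 3 it was 0.55 with an adjusted p of 0.00643. In the same replicates 1, 2 and 3, the cardiac stress genes summed to 10629, 6647 and 5600 CPM and the fibroblast markers to 1604, 1011 and 865 CPM. Gatm was also highest in replicate 1, at 3.66 CPM. The part of these marker differences in the Ckb result was not tested.

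Averaged over diets, TAC gave a log2 difference of 0.22 ± 0.08 (SE) for Ckb, with an adjusted p of 0.0751 by limma. None of the 8 genes passed by limma or edgeR. In each fit 1 had an unadjusted p under 0.05, against 31.3% of all genes by limma and 4853 of 15524 by edgeR. DESeq2 called Ckb (adjusted p = 0.044), where limma called 17% of 15524 genes and DESeq2 20%. Without BCAA-free TAC replicate 3 the Ckb difference was 0.31 with an adjusted p of 0.00249.

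The TAC response itself was compared between the diets as the response on the BCAA-free diet minus that on the control diet. The estimate was positive for 7 of the 8 genes, against 49.8% of all genes, and its median was 0.25 on the log2 scale, against 0.00. With quantile normalization it was positive for 6 of the 8 genes, with a median of 0.15. None passed the threshold by limma, edgeR or DESeq2, where 3, 2 and 3 genes had an unadjusted p under 0.05. Of the 15524 genes, 10.1% had an unadjusted p under 0.05 and 0.0451% passed by limma. By edgeR 1600 and by DESeq2 1523 of these 15524 genes had an unadjusted p under 0.05. For Ckmt2 the difference was 0.46 ± 0.14 (SE; adjusted p = 0.282 by limma), for Ckm 0.34 ± 0.15 (0.438) and for Slc6a8 -0.25 ± 0.11 (0.476). Ckmt2 and Ckm were lower in the mean after TAC on the control diet and higher on the BCAA-free diet, where they started from lower sham levels. Over all genes the median difference in every comparison of 2 groups was 0.00, and over the 8 genes it was -0.05 for TAC on the control diet, 0.19 for TAC on the BCAA-free diet, -0.14 for diet in sham hearts and 0.11 for diet in TAC hearts. With quantile normalization these 4 medians were 0.02, 0.07, -0.15 and -0.01, so the first and the last changed sign. Over single-library omissions the median for diet in TAC hearts was 0.04 to 0.15 and that for TAC on the control diet -0.07 to -0.02.

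Ratios within a library show the balance between isoforms and do not depend on library scaling. Slc25a5 amounted to 5.67%, 5.68% and 4.96% of Slc25a4 per kilobase in control sham hearts and 5.81%, 5.65% and 5.72% in control TAC hearts. On the BCAA-free diet it amounted to 4.79%, 4.74% and 4.86% in sham and 5.83%, 4.59% and 4.68% in TAC hearts. Values on the BCAA-free diet were lower apart from BCAA-free TAC replicate 1. The diet difference averaged over surgery was -0.19 on the log2 scale (exact two-sided permutation test, p = 0.025, adjusted p = 0.15 over 6 ratio tests). It did not pass after adjustment, and 0.005 was the smallest p that the 400 splits allow.

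**Figure D3:**
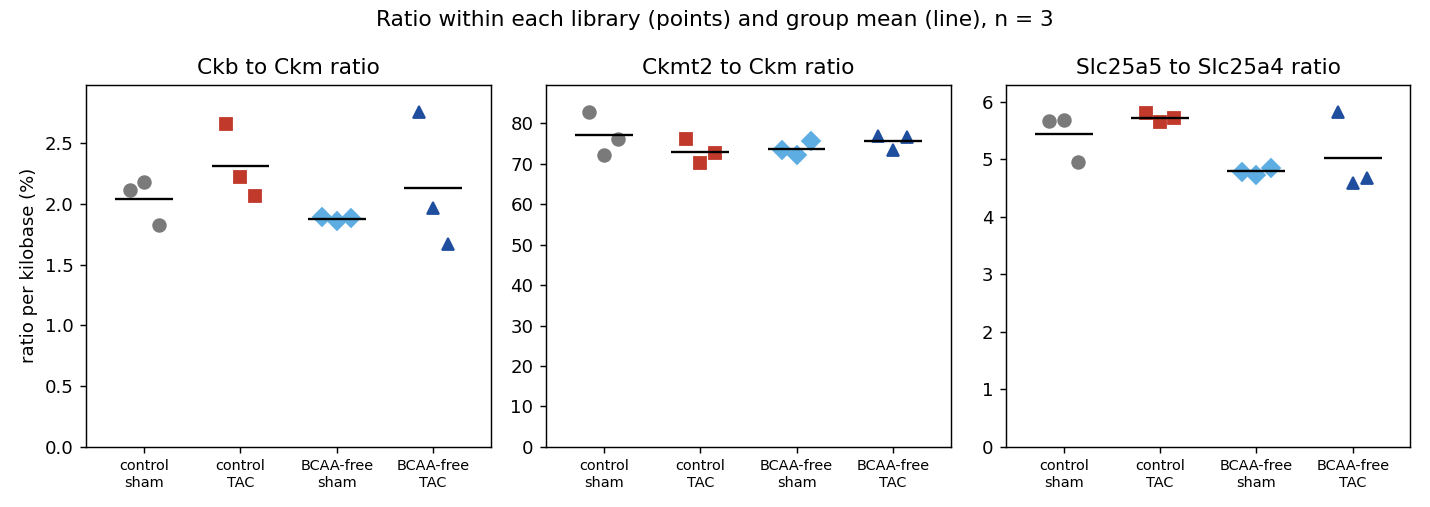
Ratio of 2 genes per kilobase within each library, in percent (vertical axes, from 0), in the 4 groups. Points are libraries and lines are means (n = 3). The Slc25a5 to Slc25a4 ratio lies at 4.74% to 4.86% in BCAA-free sham hearts and at 5.65% to 5.81% in control TAC hearts.

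The brain-type isoform was a small fraction of the muscle type in all groups. Ckb amounted to 2.04% ± 0.187 (SD, n = 3) of Ckm per kilobase in control sham, 2.32% ± 0.308 in control TAC, 1.88% ± 0.0188 in BCAA-free sham and 2.13% ± 0.563 in BCAA-free TAC hearts. The TAC difference averaged over diets was 0.16 on the log2 scale (exact permutation p = 0.22, adjusted p = 0.645). It was 0.06 without BCAA-free TAC replicate 1 and 0.24 without BCAA-free TAC replicate 3. The Ckmt2 to Ckm ratio had group means of 73.0% to 77.1%, and the TAC difference averaged over diets was -0.02 (exact permutation p = 0.635, adjusted p = 0.762). These percentages scale with the lengths used, whereas the differences between groups do not.

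Other genes of creatine handling and nucleotide exchange were read from lists of the same pathways. Of 3 further creatine genes, Gamt and Slc16a12 were tested in every comparison. Gamt, which methylates guanidinoacetate to creatine, had a log2 difference of 0.35 ± 0.12 (SE) for TAC averaged over diets (adjusted p = 0.054 by limma). Slc16a12, a creatine transporter of the plasma membrane, fell on the BCAA-free diet averaged over surgery, by 0.64 ± 0.11 on the log2 scale (adjusted p = 0.00371 by limma), and kept its call in all 12 single-library omissions. Of the 2 tested genes, 1 fell and 0 rose there, beside 11.8% of all genes called and 6.57% called lower. Its levels, low like those of Gatm, were 3.35 ± 0.351 CPM in control sham and 2.06 ± 0.142 CPM in BCAA-free sham hearts (SD, n = 3).

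Of the 8 other adenylate kinases, 4 were tested, and 1 rose and 1 fell with TAC averaged over diets. Ak4, a mitochondrial matrix isoform, fell with TAC, by 0.51 on the log2 scale on the control diet (adjusted p = 0.0245 by limma) and by 0.35 on the BCAA-free diet (adjusted p = 0.0251 by limma). It stood at 37.9 ± 4.64 CPM in control sham and 26.6 ± 1.90 CPM in control TAC hearts, and at 35.9 ± 0.298 and 28.3 ± 1.64 CPM on the BCAA-free diet (SD, n = 3). Of all genes, 5.34% were called for TAC on the control diet, 4.32% on the BCAA-free diet and 17% for TAC averaged over diets. The Ak4 average was called in all 12 omissions of 1 library. The separate Ak4 calls were lost in 4 of 6 omissions on the control diet and in 3 of 6 on the BCAA-free diet.

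Of 10 other mitochondrial carriers and channels, 2 rose and 1 fell with TAC averaged over diets, where 17% of all genes were called. Slc25a42, a coenzyme A carrier, fell by 0.39 ± 0.07 (SE, log2; adjusted p = 0.0019 by limma), while the ATP-magnesium/phosphate carriers Slc25a23 (0.20 ± 0.05) and Slc25a24 (0.34 ± 0.10) rose. Of 12 single-library omissions, 0 ended the Slc25a42 call, 3 the Slc25a23 call and 5 the Slc25a24 call. Vdac1, the outer-membrane channel, was the 1 called for diet averaged over surgery, with 0.16 ± 0.04 (adjusted p = 0.0321 by limma), where 11.8% of all genes were called. It lost its call in 8 of 12 omissions, and with quantile normalization it was 0.07 (adjusted p = 0.279). Of the 7 subunits of AMP-activated protein kinase, which senses AMP, Prkab1 fell with TAC (-0.31 ± 0.06 averaged over diets) and rose on the BCAA-free diet (0.35 ± 0.06 averaged over surgery), and Prkag1 also rose on that diet (0.23 ± 0.05). That is 1 of 7 for TAC and 2 of 7 for diet, beside the same shares of 17% and 11.8%.

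Of 13 AMP deaminases and other nucleotide enzymes, 11 to 12 were tested in each comparison. For diet averaged over surgery, 1 of 12 rose and 1 fell, beside 11.8% of all genes called. With TAC averaged over diets, 1 of 11 rose and 1 fell, beside 17%. For diet in sham hearts 1 of 12 fell, and for diet in TAC hearts 1 of 12 rose, beside 2.81% and 3.38% of all genes. Ampd3, an AMP deaminase, fell on the BCAA-free diet, from 40.4 ± 1.58 to 31.7 ± 1.97 CPM in sham hearts (SD, n = 3; log2 difference -0.34, adjusted p = 0.0294 by limma), a call lost in 4 of 6 omissions. Averaged over surgery its fall was 0.35 ± 0.05 on the log2 scale (adjusted p = 0.00158 by limma), and that call held in all 12 omissions. Nme2, a nucleoside diphosphate kinase, rose on that diet in TAC hearts by 0.48 ± 0.09 (adjusted p = 0.0263 by limma), a call also lost in 4 of 6 omissions. Nme1 rose with TAC (0.39 ± 0.11) and Nt5c1a, a cytosolic AMP nucleotidase, fell (-0.44 ± 0.10), both averaged over diets, with 3 and 0 of 12 omissions ending the call.

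The genes whose levels followed each member most closely over the 12 libraries were found by the root mean square difference of centred log2 levels, among 12705 genes. For Ckm these were Atp5g1, a subunit of the mitochondrial ATP synthase, and Ndufs8, a subunit of respiratory complex I, at 0.06 and 0.07. Slc25a4 was nearest to Cisd1, a mitochondrial outer-membrane protein, at 0.04, and Ckb to Slc25a45 at 0.08. Gatm was nearest to Itih5 and Ly86 at 0.24, and its own spread was 0.52 against 0.07 to 0.21 for the others. The nearest genes were 2410015M20Rik and Actr3b for Ckmt2, Samd4b and Nsf for Slc6a8, Polr2c and Myadml2 for Ak1, and Mlip and Wdr45b for Slc25a5. The next nearest were 2310015A10Rik for Slc25a4 and Myl6 for Ckb. All 12 libraries share these groups, so likeness is a description only.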

How the data were processed

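Polyadenylated RNA from mouse hearts was sequenced in 12 libraries. The tools named by the submitters' processing notes are STAR 2.5.2b, Trimmomatic 0.36, DESeq2 and Subread 1.5.2, and the build GRCm38 (mm10). Their settings and the strand of counting are not stated there. The authors deposited 4 tables, 1 per pair of groups, whose library columns hold a signal, gene reads divided by a size factor made per table. Per the file headers, each table also gives a log2 fold change and a raw and adjusted p-value from the authors. Whole reads were recovered from the steps of the values: 100% came out whole at a tolerance of 0.001 reads.

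Because the values are normalised, limma 3.58.1 (R 4.3.3, intensity trend) was run on log2(value + 4) where a gene averaged 10 or more, adjusted by Benjamini-Hochberg over all genes with a threshold of 0.05, each pair of groups within its own table. Differences are on that scale, which understates those of low genes such as Gatm. Averages and the difference of TAC responses used the 12 columns of 2 tables. Count tests with edgeR 4.0.16 and DESeq2 1.42.0 on recovered reads were alternatives, as were other pseudocounts, filters, normalisations and leaving out libraries. Levels are TMM-scaled CPM of recovered reads. Per-kilobase levels used GENCODE M21 exon lengths within the RefSeq gene; 2 other lengths were also tried, and this one was chosen after the levels had been seen. Ratios were tested by exact permutation within strata. Intervals cover the spread between libraries only. The limma and edgeR fits were run on simulated counts with the same spread setting for every gene. The condition set there was on the median estimate of a known change. It does not cover the uneven spread between these libraries.

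The 8 genes, the lists and the comparisons were chosen with earlier results of these data known. Named genes are the 8, and genes of the pathway lists past the threshold or, for Gamt, given as values; Gamt was chosen after its values were seen, and 1 listed gene is not reported here. The 2 nearest genes per member were ranked among genes with a mean of at least 50.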

Additional observations from a re-analysis of the deposited data

How the results depend on the processing

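With quantile normalization the median diet difference of the 8 genes in TAC hearts went from 0.11 to -0.01. The main counts of calls over all genes were 848 (TAC, control diet), 688 (TAC, BCAA-free diet), 438 (diet, sham), 548 (diet, TAC), 2633 (TAC averaged), 1819 (diet averaged) and 7 (difference of TAC responses). Without the intensity trend these were 71, 0, 0, 177 and, for diet averaged, 1161 and for the difference 4; with unadjusted p under 0.05 the 2 comparisons at 0 had 2846 and 2502 genes. In that fit 0 of the 8 genes passed for diet in sham hearts and 0 for diet averaged, with 5 and 2 at an unadjusted p under 0.05. Over all genes, 2502 of 15596 and 4139 of 15458 had an unadjusted p under 0.05 there. DESeq2 gave 1544, 1159, 826 and 1181 in the 4 pairs and 109 for the difference, with 3102 for TAC averaged and 2383 for diet averaged, and called 2 of the 8 genes for TAC on the BCAA-free diet, 5 for diet in sham hearts, 1 for diet in TAC hearts, 1 for TAC averaged and 2 for diet averaged. With edgeR over all 12 libraries, diet in sham hearts gave 129 genes and 0 of the 8, and diet in TAC hearts 1201. For diet in sham hearts, 5 of the 8 genes and 2423 of all 15665 had an unadjusted p under 0.05 in that fit. For averages this fit was not run, since edgeR on recovered reads there already used all 12 libraries. That fit tested 15524 genes for TAC averaged and 15458 for diet averaged. A pseudocount of 1, a mean of at least 50 and quantile normalization each gave 4 genes for the difference. Leaving out both control TAC replicate 2 and replicate 3, with the remaining library assumed to vary like the other groups, diet in TAC hearts gave 0 (1889 unadjusted), diet averaged 850 with 0 of the 8 genes (2 unadjusted), and the difference 1. With both libraries left out, the spread within control TAC hearts was assumed and not measured. The counts of that fit therefore cannot show whether the 8 genes differ from all genes. The cause of the shifts between settings was not tested.

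Leaving out 1 library at a time gave 300 to 659, 106 to 1199, 68 to 1020 and 138 to 1044 genes in the 4 pairs, 1732 to 2889 for TAC averaged, 1062 to 2484 for diet averaged and 2 to 15 for the difference. Of the 8 genes, 0 to 0, 0 to 1, 0 to 2 and 0 to 0 passed in the 4 pairs, 0 to 1 for TAC averaged, 0 to 3 for diet averaged and 0 to 0 for the difference. Without BCAA-free TAC replicate 1, diet averaged called Ckb (adjusted p = 0.0287) and Slc25a4 (adjusted p = 0.0438) beside Gatm. The Slc25a5 to Slc25a4 diet difference was -0.24 to -0.16, with adjusted p of 0.03 to 0.3.

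No pairing of libraries with the same replicate number is stated, and the main fits used none. Of 18 pairs, 3 had deviations that correlated above 0.1 (range -0.17 to 0.37). In 8 of the 18 pairs the library correlated best with its own number, among the 3 libraries of the other group. The highest value was that of control TAC replicate 1 with BCAA-free TAC replicate 1. With 3 libraries per group, these correlations cannot decide whether the numbers mark pairs or a batch. With the replicate block, diet in sham hearts gave 713 genes and 5 of the 8, adding Ckm (adjusted p = 0.0318), Ckmt2 (adjusted p = 0.009) and Slc6a8 (adjusted p = 0.0245), diet in TAC hearts gave 1275 genes and the difference 3.

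Depth limits Gatm most. Per-kilobase levels in control sham hearts under merged exons and the whole transcript, both added after the data were seen, are lower or equal for every gene: 2170 and 2652 CPM per kilobase for Slc25a4.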
